A study of Solanum phureja with 20 samples.

Results

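Spots with a diploid peak or trough in potato leaves were those whose transcript level in the diploid plants stood above, or below, the levels of both the monoploid and the tetraploid plants. They numbered 65 of the 32448 spots of the array, or 65 of the 14107 spots that had all the leaf values needed. The peak form, with diploids above both ends, held 42 spots, and the trough form, with diploids below both ends, held 23. The spots are duplicates of printed cDNA clones, and the 65 belonged to 52 clones, 31 with a peak and 21 with a trough.

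The plants formed one Solanum phureja ploidy series that chromosome doubling produced from a single monoploid of 12 chromosomes. It consists of the monoploid 1x, the diploids 2xR3 and 2xR5, and the tetraploid 4x, with no treatment other than ploidy, so all lines share one genotype by descent and each ploidy other than the diploid is represented by 1 line. Leaf RNA was taken from growing leaflets of 6 plants per line 20 days after planting, and root RNA, which was amplified, from growing root tips 7 days after planting. In leaf (replicates 1 and 2) and in root (replicates 4 and 5), each replicate was a loop of 4 two-colour arrays in which 1x and 4x each met both diploids, and leaf replicate 3 held a dye-swapped pair for 4x with 1x and another for 2xR5 with 2xR3.

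An autopolyploid series holds copies of one and the same chromosome set, so a gene's dosage rises in step with ploidy while its allele stays the same. Transcript levels in such series are usually described relative to the other genes, and many genes keep their share of the transcriptome. A gene whose relative level is highest or lowest at an intermediate ploidy follows no monotone relation with dosage. In plants such patterns have been described as non-additive or ploidy-specific.

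Each value is a log2 ratio between 2 lines on 1 array. The labels do not state which dye is on top of the ratio. Cy5 over Cy3, limma's usual form, was taken as likely. If the ratio ran the other way, every peak would be a trough and every sign below would turn, with sizes and p-values unchanged. For each spot, L is the mean log2 ratio of a diploid over 1x on the 4 leaf arrays that join them, and T is the mean log2 ratio of 4x over a diploid on the 4 leaf arrays that join those. R is the root counterpart of L, averaged over the arrays with a value. A peak needed L of at least 0.3 and T of at most -0.3, and a trough the opposite signs. The size of R had to be under 0.3 or R missing, and the spot had to carry no gene symbol or only LOC symbols, which are locus numbers without a gene name.

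The members were chosen by these measured values, from all 8 arrays of leaf replicates 1 and 2, so L, T and everything made from them are a description of how the spots were chosen and were not tested. L and T also share the same diploid RNA samples: a diploid sample that reads high raises L and lowers T at once. The arrays of leaf replicate 3 and those with root 4x were not used by the rule. The difference between the diploids is another contrast than the rule's, but in replicates 1 and 2 it comes from the same arrays. A ratio in whole leaflets or root tips does not tell fewer cells of a type from less RNA per cell. No array held both tissues, so the tissue labels could not be checked against a marker such as PSBR, a photosystem II subunit.

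Of the 14107 spots with all 8 leaf values, 204 (1.45%) met the peak or trough condition, 153 as a peak and 51 as a trough. The condition on root removed 134 of them, and the one on symbols a further 5. Of the 107 peak spots removed by root, 104 had R of at least 0.3, that is, diploids above 1x in root tips as well. Of the 27 trough spots removed, 19 had R of -0.3 or lower. The share of all 14107 spots with R of such size was not computed, so these counts cannot be read as a trait of peaks or troughs. Root arrays joining a diploid with 1x had an SD of 0.55 to 0.61, against 0.30 to 0.45 on the leaf loop arrays. The spots that remain have a mean first step in root tips under 0.3 in size, or no root value. Below that size R still leaned to the sign of L. It was above 0 in 21 of the 28 peak spots with a value (median 0.15) and in 4 of the 19 trough spots (median -0.09). The share above 0 over all spots was not computed.

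Missing root values were frequent among them. No root array of R had a value for 18 of the 65 spots (27.7%), against 7.37% of all spots with complete leaf values. The rule keeps such spots and its root condition removes only spots with a root value. The condition thus raises this share by itself, and the share is no trait of the members. A root value existed for the duplicate spot of 7 of the 18, and its size was at least 0.3 for 4 of these. The remaining members had 4 root values (37 spots) or 1 to 3 (10 spots).

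**Figure D1:**
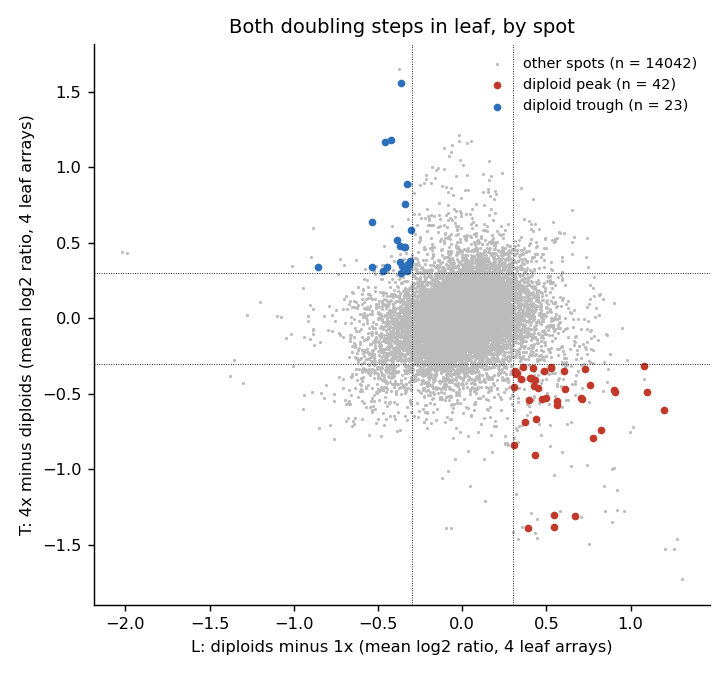
Each point is a spot with all 8 leaf values: the horizontal axis gives L, diploids minus 1x, and the vertical axis T, 4x minus diploids, both as mean log2 ratios of 4 leaf arrays. Dotted lines mark 0.3 in size, red points are the 42 peak spots and blue points the 23 trough spots. Grey points inside the same corners failed the condition on root or on symbols, and the cloud of the other spots has an SD of 0.23 for L and 0.22 for T.

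Peak spots had L between 0.31 and 1.20, with a median of 0.49, and T between -1.39 and -0.31, with a median of -0.47. Trough spots had L between -0.86 and -0.30 and T between 0.30 and 1.56, with medians of -0.36 and 0.38. Troughs were thus shallower at the first step than peaks were high. Just inside the threshold, spots 158852 and 163153 had L of 0.31 for each and T of -0.84 and -0.45. Just outside it, spots 131623 and 132467 had T of -0.297 for each, with L of 0.78 and 0.60. For troughs, spots 163481 and 138211 lay just inside with L of -0.302 and -0.365 and T of 0.59 and 0.30, and spots 160442 and 156159 just outside with L of -0.299 and -0.295 and T of 0.33 and 0.40.

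The sum of L and T is the loop difference between 4x and 1x. Its median was 0.00 over the peak spots, with 21 of 42 above 0 and a range of -0.996 to 0.76. Over the trough spots it was 0.07, with 15 of 23 above 0 and a range of -0.52 to 1.20. In this mean of the loops the peak spots divided evenly between 4x above 1x and 4x below it, but the loops taken alone did not. By clone, 4x was above 1x in 10 of 31 peak clones in replicate 1 and in 23 of 31 in replicate 2.

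The duplicate spots of a clone give a view of spot noise, although they share the RNA and the slide. Both spots were members in 11 of the 31 peak clones and 2 of the 21 trough clones. Where only 1 spot was a member and the duplicate had all 8 values, the duplicate had the same signs of L and T in 17 of 18 peak clones and 14 of 15 trough clones. Its size reached 0.3 in both L and T in 3 of the 18 and 2 of the 15, so most duplicates pointed the same way and stopped short of the threshold.

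The array values behind the means were uneven between the loops, more for the peaks than for the troughs. Among the 42 peak spots, 39 had L of at least 0.3 and T of -0.3 or lower within replicate 1 taken alone, 16 within replicate 2, and 14 within both. All 8 arrays had the sign of a peak in 17 of the 42 spots. The weak array was the one joining 4x and 2xR3 in replicate 2, whose median over the peak spots was -0.04 and whose value was above 0 in 19 of 42. The median of 4x minus 2xR3 in replicate 1 was -0.71, that of 4x minus 2xR5 -0.78 in replicate 1 and -0.48 in replicate 2. The dyes of every pair were reversed between replicates 1 and 2. On single arrays, here and below, a difference between the loops therefore cannot be told apart from a dye effect. Means of L or T within a replicate or a line hold both dye orders.

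The first step varied in the same place. The median of 2xR3 minus 1x was 0.57 in replicate 1 and 0.26 in replicate 2, while 2xR5 minus 1x gave 0.63 in both replicates. With 2xR5 alone, 34 of 42 spots reached 0.3 in L and -0.3 in T, and with 2xR3 alone 21 of 42. The mean that defines a peak thus drew more on 2xR5 and on replicate 1.

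Among the 23 trough spots the loops contributed alike. The threshold was met within replicate 1 alone by 12 spots and within replicate 2 alone by 10, but within both by only 2. All 8 arrays had the sign of a trough in 9 spots. The medians of 2xR3 minus 1x were -0.47 and -0.28 in replicates 1 and 2, and those of 2xR5 minus 1x -0.39 and -0.38. The medians of 4x minus 2xR3 were 0.68 and 0.38, and those of 4x minus 2xR5 0.30 and 0.48.

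**Figure D2:**
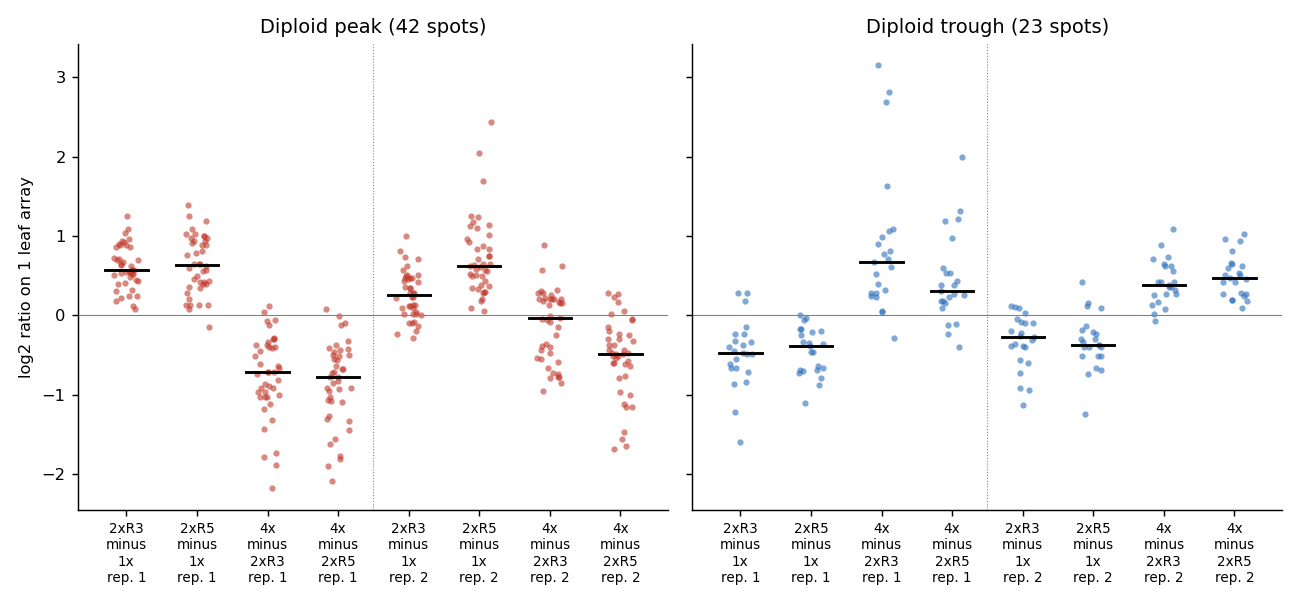
Each point is 1 member spot on 1 leaf array, as a log2 ratio, with the peak spots on the left and the trough spots on the right. Within each panel replicate 1 stands left of the dotted line and replicate 2 right of it, and black bars are medians. The dyes of each pair were reversed between the replicates. For the peaks, the array of 4x minus 2xR3 in replicate 2 has its median at -0.04, near 0, and the other 3 arrays with 4x have theirs between -0.78 and -0.48.

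A LOC symbol was attached to 11 of the 65 spots (16.9%), while any symbol was attached to 5.58% of all 32448 spots, and the rule bars spots with other symbols. The bases are unlike, since members came only from the 14107 spots with all leaf values, for which the share was not computed. The 11 spots belong to 6 genes: LOC102577835, LOC102577476, LOC102583272, LOC102577750 and LOC102602779 with a peak and LOC102577576 with a trough. The annotation used here gives no product for them, so no function can be stated. The other 54 spots have no symbol and are named by the number of a spot of their clone. Values of a clone below are means of its 2 spots, or the value of the remaining spot where the other had none.

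LOC102577835 had the most negative second step among the genes with a symbol, and 2 separate clones of it showed the same profile. In clone 132709, 2xR3 minus 1x was 0.47 and -0.04 and 2xR5 minus 1x was 0.92 and 0.84 in replicates 1 and 2. Its 4x minus 2xR3 was -1.25 and -0.66, and its 4x minus 2xR5 -1.85 and -1.62. The level in 2xR5 was the highest of the 4 lines in both loops, and that in 4x the lowest. Clone 142908 gave 0.52 and 0.00 for 2xR3 minus 1x, 0.97 and 1.01 for 2xR5 minus 1x, -1.07 and -0.63 for 4x minus 2xR3, and -1.96 and -1.51 for 4x minus 2xR5. The 4 spots agreed closely, with L from 0.55 to 0.67 and T from -1.39 to -1.28. One spot of clone 142908 was not a member, because its R was 0.40.

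In this gene the 2xR3 sample of replicate 2 stood at the level of 1x, and the peak in that loop was one of 2xR5 alone. The difference of 2xR5 minus 2xR3 was 0.52 and 0.92 in replicates 1 and 2 for clone 132709, and 0.06 in replicate 3. For clone 142908 it was 0.67, 0.94 and 0.02. Over the replicates it averaged 0.50 ± 0.19 and 0.54 ± 0.19 on the log2 scale (SE, n = 3; adjusted p = 0.509 and 0.495 in limma), so neither clone passed. Here and below an SE is limma's own. It pools the spread over the lines and is drawn toward that of the other clones. It can thus be smaller than the spread of the replicate values quoted. The 2 clones were read from the same RNA samples and are not replicates.

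LOC102577476 also had 2 clones, and all 4 spots were members. Clone 137957 had 0.27 and 0.46 for 2xR3 minus 1x, 0.43 and 0.40 for 2xR5 minus 1x, -0.77 and 0.31 for 4x minus 2xR3, and -0.37 and -0.48 for 4x minus 2xR5 in replicates 1 and 2. Clone 156651 had 0.53 and 0.31, 0.38 and 0.65, -0.94 and 0.16, and -0.42 and -0.42 for the same 4 differences. Every array placed the diploids above 1x, while the array of 4x and 2xR3 in replicate 2 placed 4x above 2xR3 in both clones. The level in 4x lay below that in 1x in replicate 1, at -0.22 and -0.23, and above it in replicate 2, at 0.34 and 0.35.

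LOC102583272 had the highest first step among the genes with a symbol. Its clone 162139 gave 0.82 and 0.80 for 2xR3 minus 1x and 0.96 and 0.75 for 2xR5 minus 1x, a mean of 0.83 ± 0.09 (SD of 4 arrays). The second step was smaller and uneven, with -0.48 and 0.03 for 4x minus 2xR3 and -0.73 and -0.36 for 4x minus 2xR5. The 4x level therefore stayed above 1x in both loops, by 0.29 and 0.61. The duplicate spot had L of 0.76 and T of -0.29 and so was not a member. Another clone of the same symbol, 143244, stood near 0 in both spots, with L of 0.00 and -0.05 and T of -0.01 and -0.07, so the clones of this symbol disagreed.

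LOC102577750, clone 156912, owed its peak to replicate 1. There 2xR3 minus 1x was 0.90, 2xR5 minus 1x 0.87, 4x minus 2xR3 -1.54 and 4x minus 2xR5 -0.63. In replicate 2 the same differences were -0.16, 0.44, 0.75 and -0.17. The 2xR3 sample of replicate 2 was thus the lowest of the 4 lines in its loop. Of its spots 1 was a member and had no root value, and the duplicate had L of 0.53 and T of -0.26.

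LOC102602779, clone 144780, was near the threshold. Its arrays gave 0.51 and -0.12 for 2xR3 minus 1x, -0.05 and 0.63 for 2xR5 minus 1x, -0.36 and -0.10 for 4x minus 2xR3, and -0.77 and 0.29 for 4x minus 2xR5. Both steps took both signs across the arrays, and the duplicate spot had L of 0.16 and T of -0.10. The first step was above 0 on the arrays with the diploid in Cy5 and below 0 on those with 1x in Cy5. No value of this clone existed for 4x with 1x in replicate 3. Another clone of the same symbol, 137365, lacked some leaf values. On the arrays present its spots had L of 0.322 and -0.18 and T of -0.235 and -0.189, so they disagreed on the first step.

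LOC102577576, clone 161387, was the only gene with a symbol among the troughs. It had -1.37 and 0.19 for 2xR3 minus 1x, -0.49 and 0.20 for 2xR5 minus 1x, 2.85 and 0.81 for 4x minus 2xR3, and 2.12 and 0.63 for 4x minus 2xR5. In replicate 1 the diploids lay below both ends, and in replicate 2 the levels followed the order 1x, 2xR3, 2xR5, 4x upwards. The 4x level was the highest of the lines in both loops, 1.56 and 0.91 above 1x. Its member spot had no root value, and the duplicate spot had R of 1.04, diploids above 1x in root tips, and was not a member.

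**Figure D3:**
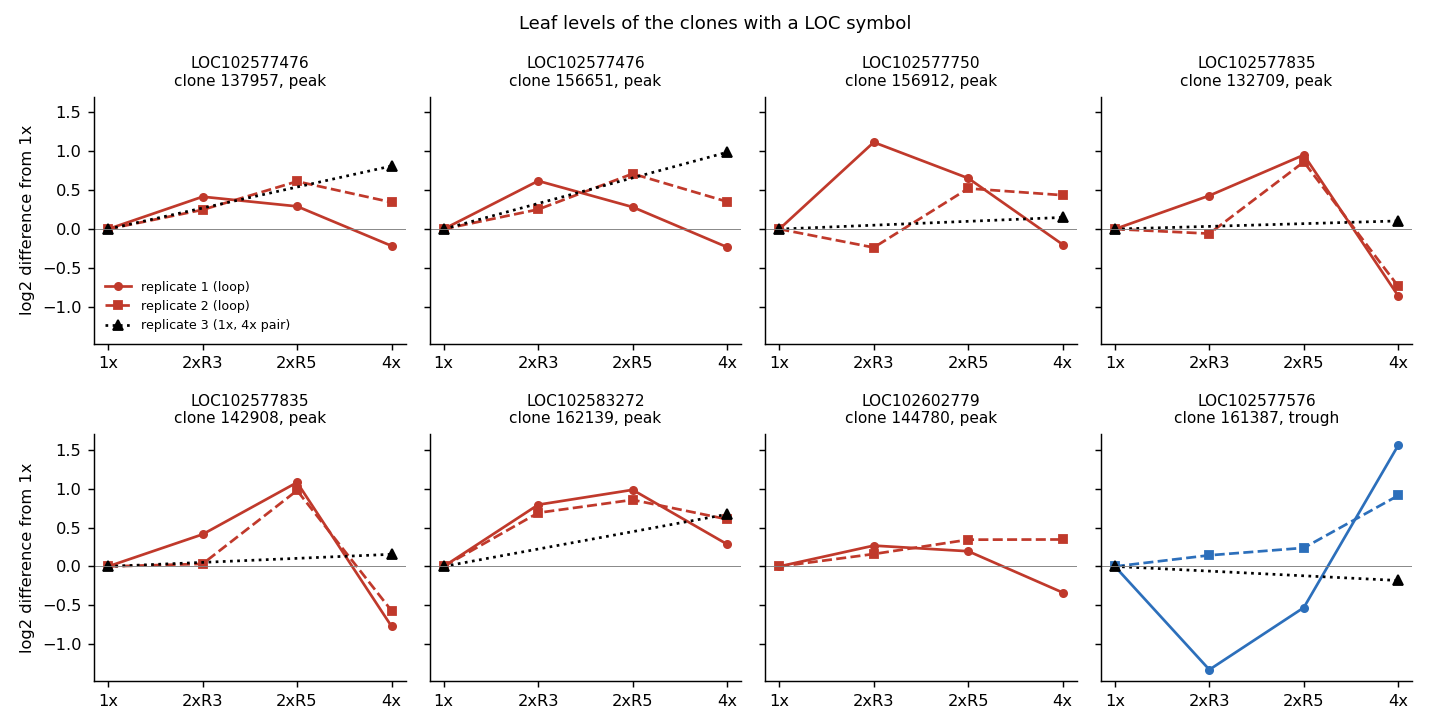
Each panel shows 1 clone with a LOC symbol, with the line on the horizontal axis and the log2 difference from 1x on the vertical axis. Coloured lines are leaf replicates 1 and 2, each solved from its loop of 4 arrays, and black triangles are the 4x with 1x pair of replicate 3. Both LOC102577835 clones peak at 2xR5 in each loop and have 4x at -0.86 to -0.57, whereas the triangles lie at 0.10 and 0.16.

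Of the clones without a symbol, 2 of each form are described, those with the largest smaller step in both spots. Peak clone 131267 had 0.87 and 0.61 for 2xR3 minus 1x, 0.88 and 0.84 for 2xR5 minus 1x, -0.96 and -0.38 for 4x minus 2xR3, and -0.75 and -0.98 for 4x minus 2xR5. Both spots were members and all 8 arrays had the sign of a peak. In root tips its R was -0.22, the sign opposite to that in leaf. Peak clone 155590 had 0.29 and 0.54, 0.86 and 0.57, -0.34 and -0.47, and -0.31 and -1.14 for the same differences, again with one sign throughout. Its root arrays disagreed, with 1.25 and -0.75 for 2xR3 minus 1x and 0.79 and -0.14 for 2xR5 minus 1x in replicates 4 and 5, so its small mean R of 0.29 hides opposite values.

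Trough clone 153317 had -0.32 and -0.96 for 2xR3 minus 1x, -0.38 and -0.35 for 2xR5 minus 1x, 0.83 and 0.52 for 4x minus 2xR3, and 0.06 and 0.82 for 4x minus 2xR5. All of these values had the sign of a trough. Only 1 of its spots was a member, for lack of a root value, and the single root value of the other was -1.78. Trough clone 161807 had -0.85 and 0.01, -0.51 and -0.41, 2.98 and 0.10, and 1.20 and 0.41. Replicate 1 carried most of its second step.

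The pair of 4x and 1x in leaf replicate 3 was outside the rule and gave a value for 40 of the 52 clones. Over the 23 peak clones with a value its median was 0.23, with 19 above 0 and a range of -0.33 to 1.20. The same difference had a median over all 31 peak clones of -0.14 in replicate 1, with 10 above 0, and of 0.33 in replicate 2, with 23 above 0. Over the 17 trough clones the replicate 3 median was -0.16, with 7 above 0. Their loop medians, over 21 clones, were 0.01 and 0.08. Beside these, the median over all 6001 clones with every leaf value was -0.00425 in replicate 3 and 0.02 in the loops.

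Set against the 2 loops, the replicate 3 value lay above both in 14 of the 23 peak clones, below both in 1, and between them in 8. In the 17 trough clones it lay above both in 3, below both in 9 and between them in 5. Between the loop mean and replicate 3, Pearson's r across clones was 0.26 over the 40 members, 0.59 over the 23 peak clones alone, 0.17 over the 17 trough clones alone and 0.72 over the 6001 clones, as a description in which clones share the same RNA samples.

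**Figure D4:**
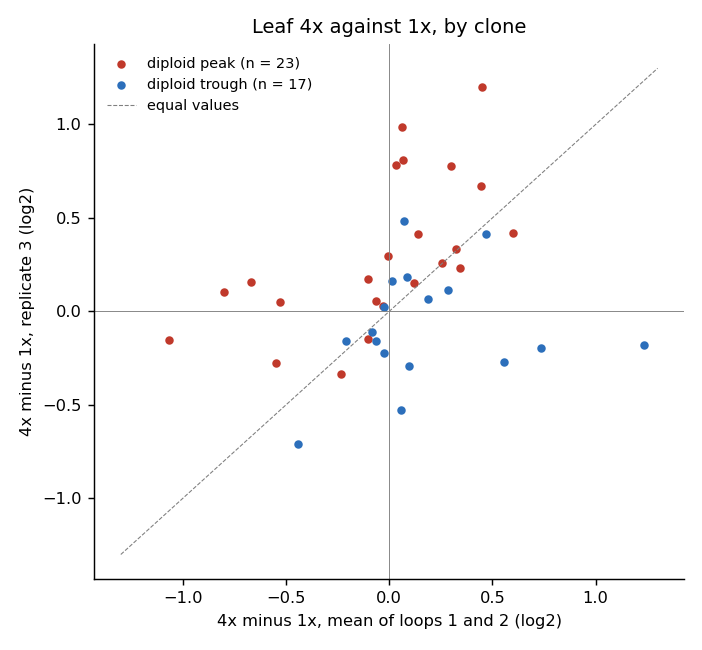
Each point is 1 clone: the horizontal axis gives 4x minus 1x as the mean of leaf loops 1 and 2, and the vertical axis the same log2 difference in replicate 3. Peak clones (red, n = 23) lie above the dashed line of equal values more often than below it, and trough clones (blue, n = 17) include 3 with a loop mean above 0.5 and a replicate 3 value below 0.

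In a limma fit in which this pair had a coefficient of its own, the spread came from the loops and the single value was assumed to vary like them. Those loops chose the members, so only the replicate 3 value is independent of the choice, and its SE and p-value are not. The SE of a member clone reached 0.58, in clone 161807, against a median of 0.13 over all clones. A Benjamini-Hochberg adjusted p under 0.05 was reached by 19 of 6001 clones (0.317%), 8 with 4x above 1x and 11 with 4x below it, and 949 had an unadjusted p under 0.05. Of the 52 member clones 34 could be tested. None passed, and 7 had an unadjusted p under 0.05. The alternative with missing values allowed and the one without the replicate block were both array-level fits with no replicate block. They count each dye-swapped array as a replicate, although the arrays of a pair share their RNA.

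The nearest was peak clone 131267, with array values of 0.71 and 0.85 in the dye-swapped arrays and a mean of 0.78 ± 0.16 on the log2 scale (SE, 1 pair; adjusted p = 0.077 in limma). In the loops the same difference was 0.02 and 0.04, so the level in 4x was close to that in 1x there and stood above it in replicate 3. Its limma adjusted p ranged from 0.005 to 0.081 over the alternatives. It passed with scaled arrays (limma, adjusted p = 0.030) and in both array-level fits, with missing values allowed and without the replicate block.

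LOC102577476 followed. Clone 137957 had 0.84 and 0.79 on the dye-swapped arrays, a mean of 0.81 ± 0.21 (limma, adjusted p = 0.123), and clone 156651 had 1.03 and 0.94, a mean of 0.99 ± 0.26 (limma, adjusted p = 0.128). Both exceed the loop values of either replicate. Both clones passed in the array-level fits, without the replicate block at a limma adjusted p of 0.017 and 0.013, and also with missing values allowed. Over the alternatives the limma adjusted p was at most 0.117 and 0.131.

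LOC102577835 gave 0.10 ± 0.24 and 0.16 ± 0.26 in replicate 3 (limma, adjusted p = 0.871 and 0.821), against -0.86 and -0.74 in the loops for clone 132709 and -0.77 and -0.57 for clone 142908. The low 4x level of both loops was not seen in the replicate 3 pair. LOC102577750 gave 0.15 ± 0.46 (limma, adjusted p = 0.909). LOC102577576 gave -0.18 ± 0.51 (limma, adjusted p = 0.899), against 1.56 and 0.91 in the loops. LOC102583272 had 0.66 and 0.68 on the dye-swapped arrays, close to the 0.61 of loop 2. It lacked a value on another leaf array and entered only the array-level fit that allows missing values, where it passed (limma, adjusted p = 0.047).

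Trough clones 137697 and 153434 and peak clone 142595, named after their values were seen, also passed under alternatives. Clone 137697 was -0.71 (limma, adjusted p = 0.137), against -0.23 and -0.65 in the loops. It passed in the array-level fits, with missing values allowed and without the replicate block, at a limma adjusted p of 0.027 and 0.025. Its replicate 3 value came from the duplicate spot alone, which was not a member and lacked some loop values. The values compared therefore rest on unlike spots. Clone 153434 was 0.48 (limma, adjusted p = 0.189) and passed with missing values allowed and without the block, at 0.049 and 0.044. Clone 142595 entered only the fit that allows missing values, where it passed at 1.20 (limma, adjusted p = 0.001), against 0.46 and 0.43 in the loops.

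Of the clones without a symbol that were named by rule, 153317 was -0.53 ± 0.18 in replicate 3 (limma, adjusted p = 0.210), against 0.10 and 0.02 in the loops, and 161807 was -0.20 ± 0.58 (limma, adjusted p = 0.905), against 1.41 and 0.06. Clone 155590 had no value there. No array of replicate 3 joined a diploid with 1x or 4x, so the peak or trough itself was not measured there.

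The 2 diploid lines have equal ploidy, and the rule used their mean, not their difference. In replicates 1 and 2 the difference comes from the arrays that chose the members, so only its replicate 3 value is independent of the choice, and the 3-replicate means and p-values below are not fully so. Over the 31 peak clones 2xR5 minus 2xR3 in leaf had a median of 0.01 in replicate 1 and 0.36 in replicate 2, with 16 and 26 above 0. In replicate 3, over 17 clones, the median was 0.22 with 16 above 0. The trough clones had medians of 0.11, -0.03 and -0.07, with 15 of 21, 10 of 21 and 7 of 18 above 0. By spot, the replicate 3 median was 0.21 over 23 peak spots and -0.07 over 17 trough spots, against 0.0 over 10406 spots. All clones of replicate 3 were read from the same RNA samples and are not replicates.

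**Figure D5:**
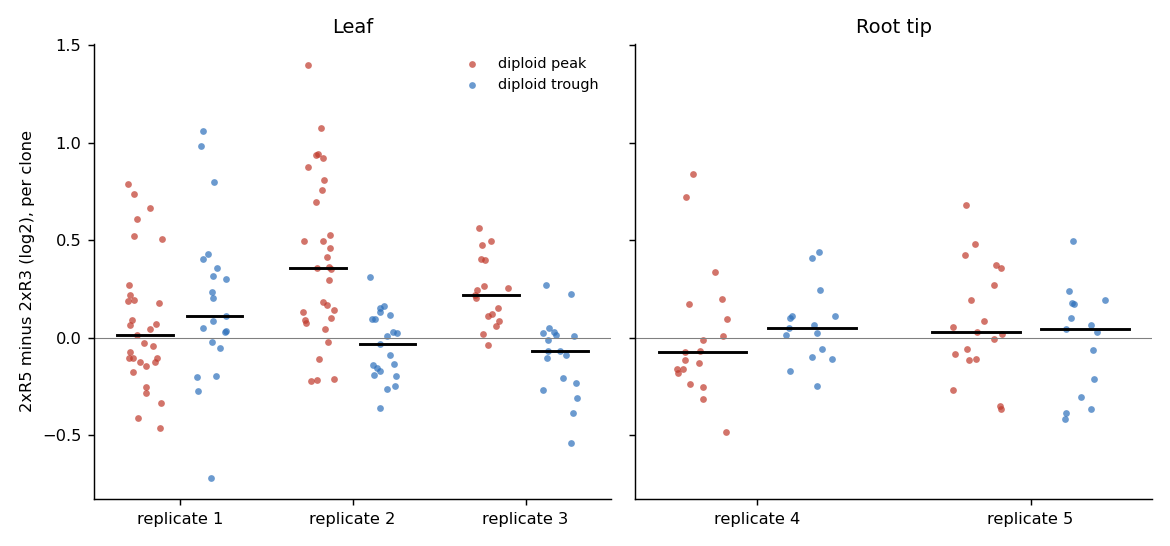
Each point is 1 clone's 2xR5 minus 2xR3 as a log2 difference, with leaf replicates 1 to 3 on the left and root replicates 4 and 5 on the right. Peak clones are red, trough clones blue, and black bars are medians. In leaf the peak medians are 0.01, 0.36 and 0.22, and in root tips -0.07 and 0.03.

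Over the 17 peak clones in the limma fit, 2xR5 minus 2xR3 had a median of 0.16 and was above 0 in 14, against a median of 0.01 over all 6001 clones. Over the 17 trough clones the median was 0.02, with 11 above 0. None of the 6001 clones passed (0%), with 518 at an unadjusted p under 0.05, and none of the 34 member clones, with 6 at an unadjusted p under 0.05. The same counts of calls were 0 with robust eBayes, with missing values allowed and without the replicate block.

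The smallest p-values among the members belonged to 2 peak clones without a symbol, which were chosen after their values were seen. Clone 145013 had 0.61, 0.94 and 0.27 in replicates 1 to 3, a mean of 0.61 ± 0.11 on the log2 scale (SE, n = 3; adjusted p = 0.229 in limma). Its adjusted p ranged from 0.061 to 0.845 over the alternatives. Clone 150668 had 0.79, 1.40 and 0.56, a mean of 0.92 ± 0.17 (limma, adjusted p = 0.229), and it passed only where the arrays were scaled (limma, adjusted p = 0.047), with a range of 0.047 to 0.845. In both clones every replicate had 2xR5 above 2xR3, and 2xR5 minus 1x exceeded 2xR3 minus 1x in both loops. Another peak clone without a symbol, 142595, chosen likewise, passed at 0.91 without replicate 3, where it could be tested (limma, adjusted p = 0.025). That fit held only the loops that chose the members, so no part of it is independent of the choice.

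LOC102577476 was 0.16 ± 0.16 and 0.11 ± 0.19 in the same comparison (limma, adjusted p = 0.771 and 0.886). LOC102577750 was 0.17 ± 0.26 and LOC102577576 0.39 ± 0.35 (limma, adjusted p = 0.864 and 0.749). Clones 131267, 153317 and 161807 gave 0.15, 0.10 and 0.23, with adjusted p from 0.751 to 0.868 in limma. None of these clones passed.

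In root tips, 4x minus the diploids is the counterpart of the second step in leaf. The diploid root samples were also used in R, which the rule holds small or missing. Over the 19 peak clones with a value the median was -0.01 in replicate 4 and -0.12 in replicate 5, with 9 and 4 above 0. Over the 15 trough clones the medians were 0.05 and 0.03, with 10 and 9 above 0.

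Of 8245 clones none passed in limma (0%), with 582 at an unadjusted p under 0.05. None of the 32 member clones tested passed, with 3 at an unadjusted p under 0.05. The median over the 18 peak clones was -0.08, with 7 above 0, and over the 14 trough clones 0.04, with 12 above 0, against 0.01 over all clones. These medians had the signs of T in leaf. The R of the member spots, which shares the diploid root samples, had medians with the signs of L.

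Of the genes with a symbol, LOC102577476 gave -0.15 ± 0.09 and -0.11 ± 0.07 on the log2 scale (SE, n = 2; adjusted p = 0.823 and 0.850 in limma), LOC102602779 -0.19 ± 0.11 (limma, adjusted p = 0.797) and LOC102583272 -0.05 ± 0.05 (limma, adjusted p = 0.932). Clone 142908 of LOC102577835 averaged 0.00 ± 0.30, with 0.67 in replicate 4 and -0.66 in replicate 5. The root loops of that clone were thus opposite in sign and of like size, a spread wider than that SE. Under the alternatives that keep both root replicates no member passed. Leaving out a root replicate leaves 1 RNA sample per line, assumed to vary like the leaf samples, which supply the spread. Calls from those fits are therefore not given. Of the clones without a symbol, 3 were named after their values were seen. Trough clone 153434 averaged 0.90 (limma, adjusted p = 0.685), with 0.25 in replicate 4 and 1.56 in replicate 5. Peak clones 132086 and 158852 had -0.74 and -0.78 in replicate 4, and -0.16 and -0.22 in replicate 5.

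Between the diploids in root tips, 0 of 8245 clones (0%) and 0 of the 32 member clones passed in limma, with 301 and 3 at an unadjusted p under 0.05. The median of 2xR5 minus 2xR3 was 0.00 over the 18 peak clones, 0.03 over the 14 trough clones and 0.00 over all clones. LOC102583272 gave -0.25 and -0.27 in replicates 4 and 5, a mean of -0.26 ± 0.06 (limma, adjusted p = 0.998), and LOC102577835 clone 142908 gave 0.72 and 0.27, a mean of 0.50 ± 0.35 (limma, adjusted p = 0.998). The lead of 2xR5 among peak clones in leaf replicates 2 and 3 had no like median in root tips, and the difference between the tissues was not tested.

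Of the 52 member clones, 34 entered the leaf fits, 32 the root fits, 19 both and 5 neither. The 18 clones outside the leaf fits, 14 with a peak and 4 with a trough, lacked a value on an array of replicate 3. Counts over tested clones are therefore not counts over all members. The members were spread over all 12 print blocks of the array, with 1 to 11 spots in each.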

How the data were processed

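Two-colour spotted cDNA arrays compared 4 lines of one ploidy series on 12 leaf and 8 root arrays. The deposited values are log2 ratios of both channels per spot. Of the submitters' steps only limma is known, from their processing notes; its version and the background correction are not given in the sources used here. Medians of the arrays lay between -0.013 and 0.014. Each array had a value for 12403 to 18629 spots, why others lack one is not given, and the number of arrays limits the precision. Duplicate spots, inferred from the print layout (15360 pairs), correlated at 0.517 to 0.952 and were averaged per clone.

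Least squares gave a level for each line within a loop of 4 arrays, in which a dye effect cancels, and dye-swapped pairs were averaged. These levels entered limma 3.58.1 (lmFit, eBayes; R 4.3.3) with line as factor and replicate as block. The block is needed because every ratio lies within 1 replicate. Each SE is the moderated one of limma, pooled over the lines and drawn toward that of the other clones. It is not the spread of the replicate values printed beside it. Benjamini-Hochberg adjustment ran over all clones of a tissue with every value, at a threshold of 0.05. No pseudocount or filter on low values was used. No label ties replicates to particular plants, so the spread behind the p-values is that between RNA samples and may be technical. The fit was tested on simulated data.

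The members, lists and tests were chosen with earlier results of these data known. Named were all member genes with a LOC symbol and, of clones without one, the 2 peak and 2 trough clones with the largest smaller step in both spots. Of all spots 1630 had 1 symbol, 180 several and 30638 none. Groups by product could not be formed, since no product names were used here.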

Additional observations from a re-analysis of the deposited data

Results flagged for a closer look

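LOC102583272, a peak gene, was singled out because its difference of 2xR5 minus 2xR3 had opposite signs in the tissues in every replicate measured. Its clone 162139 gave 0.191 and 0.167 in leaf replicates 1 and 2, and -0.252 and -0.268 in root replicates 4 and 5 (log2). The leaf pair of replicate 3 had only 1 of its 2 arrays, which read 0.83 and was not used. The difference between the tissues was not tested.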

How the results depend on the processing

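The number of members followed the threshold and the replicates. It was 65 as reported, 120 at a threshold of 0.25, 25 at 0.4, 190 with no condition on root, and 32 clones when the rule was applied to clone means. Taken from 1 loop alone it was 189 without replicate 2 and 99 without replicate 1, of which 51 and 26 were among the 65. With scaled arrays it was 58, 44 of them among the 65, and 83 where R counted only with all 4 root values, an alternative chosen after seeing the data. No member clone passed any of the 4 limma tests as reported. With scaled arrays 1 passed between the leaf diploids and 1 in replicate 3. In replicate 3, 7 of 42 passed with the 75% rule for missing values (349 of 7278 clones in all). That rule was run as an array-level fit with no replicate block. The same fit on complete values called 5 of 34 (325 of 6001). Both count the dye-swapped arrays of an RNA pair as replicates, unlike the main fit (19 of 6001). No other test called a member without the block. Leaving out 1 replicate gave 0 to 1 member calls between the leaf diploids. The 1 call came without replicate 3, from only the loops that chose the members. For the test of replicate 3 it leaves no repeat of 4x minus 1x in the spread. In root it leaves 1 RNA sample per line, assumed to vary like the leaf samples that supply the spread. Calls from the fits of these 2 kinds are not given. With 1 replicate left out, leaf 2xR5 minus 2xR3 ran from -0.026 to 0.25 in clone 153317, -0.18 to 0.53 in clone 161807, -0.065 to 0.33 in LOC102577476 clone 156651 and -0.12 to 0.49 in LOC102577750. Root 4x minus diploids ran from -0.66 to 0.67 in LOC102577835 clone 142908 and -0.32 to 0.019 in LOC102577476 clone 137957, and root 2xR5 minus 2xR3 from -0.12 to 0.37 in clone 145013. With scaled arrays root 2xR5 minus 2xR3 of LOC102602779 was 0.012. Of 215 such values of named clones, 196 kept sign and side of the threshold, 11 newly passed and 8 turned sign. The 11 include passes in array-level fits and without replicate 2, where the limits above apply. The causes were not tested. Without spot intensities, dim spots and slides were not examined.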
